A study of Homo sapiens with 12 samples.

Results

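Mature miRNAs of cells that carried the DICER form labelled A5 were compared with those of cells that carried wild-type DICER (WT). The comparison took the libraries titled as A5 rescue and as wild-type rescue, 4 of the 12 libraries of the series, 2 in each group. It covered all 1346 miRNA entries, with 30 spike-in sequences as a second scale. All groups were made in HCT116, an established human colorectal carcinoma line, and in each group the DICER named in the labels was supplied as a rescue. The labels do not say which DICER the host cells still had, whether the cells were 1 clone, or how much rescue protein they made. The meaning of the names A5 and E5 was not given in any of the sources used here. The E5 group and the group labelled ΔPAZ helix, also 2 libraries each, were used to ask where A5 differed from other altered forms. The remaining groups, labelled R821E and R821A, again 2 libraries each, were not tested against A5. Their libraries entered the shared fit over all 12 libraries that set the spread for the tests of single miRNAs. Libraries were prepared from total RNA by AQ-seq, a protocol for small RNA with reduced ligation bias. The title of the series names a structure of DICER with its precursor during cleavage.

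DICER is the RNase III enzyme that cuts the loop off a precursor hairpin and leaves a short duplex. Either strand of that duplex can be loaded into an Argonaute protein. The strand from the 5′ side of the hairpin is called 5p and that from the 3′ side 3p. The seed, the bases near the 5′ end of the loaded strand, pairs with target mRNAs, and miRNAs with the same seed form a family with shared targets. Spike-ins are synthetic RNAs added to a sample, so that a count relative to them can show a change shared by most miRNAs, which scaling between miRNAs removes.

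The sequences below are those on which the comparison turned. They are RefSeq mature sequences on GRCh38.p14, written 5′ to 3′, with the seed (bases 2 to 8) in capitals. The first pair is miR-221-3p and miR-222-3p, which share a seed and come from neighbouring hairpins on the minus strand in an intron of the non-coding gene MIR222HG, at chrX:45746180-45746202 and chrX:45747036-45747056.
miR-221-3p: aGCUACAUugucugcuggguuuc
miR-222-3p: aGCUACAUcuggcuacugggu

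The let-7 family is shown because 1 seed was carried by strands that fell and by strands that did not pass the test. let-7i-5p lies on the plus strand at chr12:62603691-62603712, in an intron of the non-coding gene AC048341.1. miR-98-5p lies on the minus strand at chrX:53556299-53556320, in an intron of HUWE1. let-7f-5p has a copy at chrX:53557246-53557267 in an intron of the same gene and another on chromosome 9. let-7g-5p lies on the minus strand at chr3:52268336-52268357, in an intron of WDR82. miR-98-5p differs from let-7a-5p at 2 bases, let-7f-5p at 1, let-7g-5p at 2 and let-7i-5p at 4.
let-7a-5p: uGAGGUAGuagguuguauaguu
let-7f-5p: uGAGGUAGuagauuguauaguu
let-7g-5p: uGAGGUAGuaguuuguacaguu
let-7i-5p: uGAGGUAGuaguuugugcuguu
miR-98-5p: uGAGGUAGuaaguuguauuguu

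Another 3 strands are shown among those that fell on the spike-in scale. miR-185-5p and miR-103a-3p are shown for the size of their fall, and miR-101-3p for the close agreement between libraries of a group. miR-185-5p lies at chr22:20033153-20033174 in an intron of TANGO2. miR-103a-3p has copies in introns of PANK3 and PANK2. miR-101-3p matched the copy at chr9:4850345-4850365 in an intron of RCL1.
miR-185-5p: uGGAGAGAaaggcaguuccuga
miR-103a-3p: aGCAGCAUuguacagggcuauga
miR-101-3p: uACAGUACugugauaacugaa

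The next pair shares a seed but not its course in A5. miR-100-5p lies at chr11:122152275-122152296 in an intron of MIR100HG, and miR-99b-5p at chr19:51692618-51692639 in an intron of SPACA6.
miR-100-5p: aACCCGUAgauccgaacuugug
miR-99b-5p: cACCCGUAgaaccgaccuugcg

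The last set holds the entries with the lowest p-values between A5 and E5. miR-25-3p lies at chr7:100093571-100093592 in an intron of MCM7, and miR-92a-3p has a copy at chr13:91351361-91351382 in an exon of MIR17HG.
miR-25-3p: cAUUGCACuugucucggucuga
miR-92a-3p: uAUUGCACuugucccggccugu

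The 4 libraries had 193950 to 250755 miRNA counts each, with 713 to 800 entries detected, within the range of 144067 to 255296 counts over all 12 libraries. Spike-ins took 3.71% to 5.17% of their counts. In these libraries 3 counts corresponded to 10.4 to 15 CPM, the unit for counts scaled to a common library size with TMM factors (trimmed mean of M-values), a limit that covers counting error only. The 2 WT libraries were less alike than the 2 A5 libraries, with a chi-square per degree of freedom of 25.6 against 5.16. The labels do not state that replicate libraries were grown as separate cultures. The p-values therefore reflect how far these samples spread, which may be technical alone. A filter on low counts left 374 entries (174 5p, 148 3p and 52 without an arm in the name), which held 99.6% of miRNA counts. Of the 972 entries not tested, 246 were at 0 in all 4 libraries. Summed epithelial miRNAs of the miR-200 family (6 of 9 entries tested) lay between 2298 and 2583 CPM in the 4 libraries, and their members were led by miR-200b-3p and miR-200a-3p. The intestinal miRNAs miR-192, miR-194 and miR-215 summed to only 179 to 302 CPM (2 of 5 entries tested), below the neuronal and fibroblast sums that follow. The marker lists of other cell types summed to 274 to 385 CPM for leukocytes (2 of 4 entries tested), 225 to 329 for erythroid cells (3 of 5), 617 to 798 for neurons (3 of 6) and 1221 to 1501 for fibroblasts and endothelium (5 of 9). The single muscle entry was at 0, and the hepatocyte entry, miR-122, had 1 or 2 counts in each library. The neuronal sum (617 and 664 CPM in WT, 798 and 767 in A5) and the erythroid sum (250 and 225, 329 and 256) were higher in both A5 libraries, the epithelial sum (2497 and 2583, 2359 and 2298) was lower, and the others overlapped. Their part in the results was not tested.

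A5 libraries held fewer miRNA counts per spike-in count than WT libraries, and more so for 3p than for 5p strands. The ratio was 22.4 and 25.9 in the WT libraries and 18.3 and 18.6 in the A5 libraries. The means were 24.2 ± 2.49 in WT and 18.5 ± 0.206 in A5 (SD, n = 2), 23.6% lower in A5, and the groups did not overlap. Strands named 3p fell short by more: 6.31 ± 0.215 counts per spike-in count in WT against 3.94 ± 0.310 in A5, 37.6% lower. For 5p strands the values were 16.7 ± 2.05 and 13.5 ± 0.0707, 19.3% lower. These sums weigh abundant strands most: over the strands tested below, each counted once, the median log2 fold changes per spike-in count lay closer together, at -0.53 for 3p and -0.42 for 5p. Entries without an arm overlapped between the groups, at 1.19 ± 0.226 and 1.07 ± 0.175.

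The composition of the miRNA pool moved the same way. 3p strands made up 27.5% and 24.9% of miRNA counts in the WT libraries and 20.3% and 22.3% in the A5 libraries. miR-21-5p, an abundant miRNA of many carcinomas, made up 40.4% ± 3.89 in WT and 44.4% ± 1.03 in A5. Without miR-21-5p the rest of the pool was at 14.4 counts per spike-in count in WT and 10.3 in A5, 28.4% lower, so the difference did not rest on this one strand. With 2 libraries against 2, a two-sided exact permutation test cannot go below p = 0.333, and each of these quantities gave that p, except the entries without an arm (0.667). The adjusted p was 0.37 for the first and 0.667 for the second (Benjamini-Hochberg over 10 library quantities, exact permutation tests). E5 libraries were at 17.1 ± 0.856 miRNA counts per spike-in count and a 3p share of 20.4% ± 2.23, and ΔPAZ helix libraries at 19.2 ± 1.92 and 21.8% ± 1.42. R821E libraries were at 14.3 ± 1.38 and 11.5% ± 0.59, and R821A libraries at 19.6 ± 2.73 and 25.6% ± 2.28. Every library of an altered form, not A5 alone, thus had fewer miRNA counts per spike-in count than either WT library. The 3p share of R821A overlapped that of WT.

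**Figure D1:**
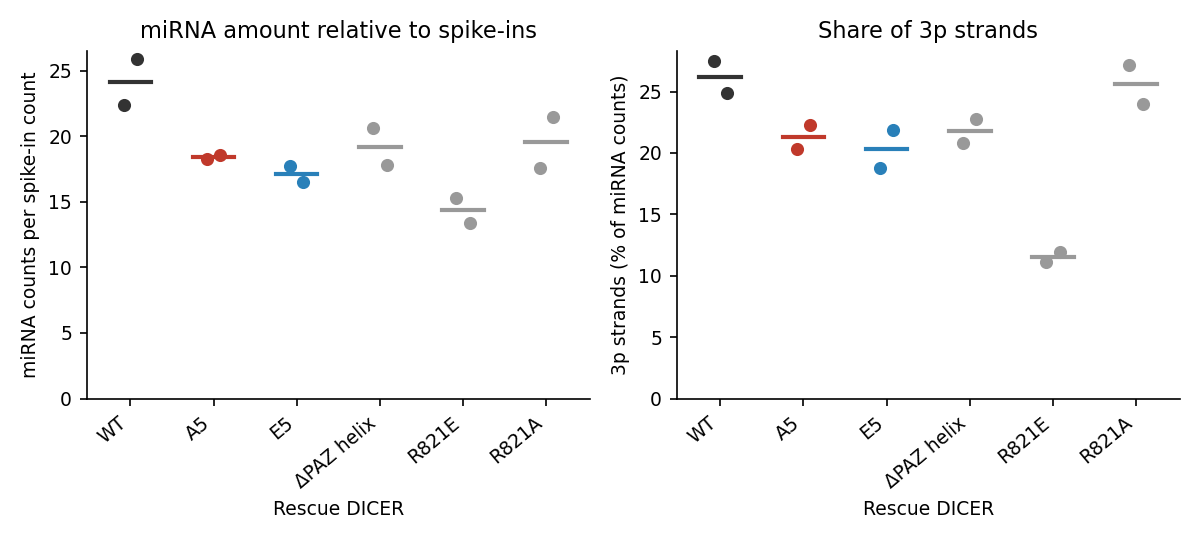
miRNA counts per spike-in count (one panel) and the share of 3p strands in miRNA counts in percent (other panel), with a point for each library in each of the 6 groups. The A5 libraries, at 18.3 and 18.6 counts per spike-in count and at 20.3% and 22.3%, lay below both WT libraries in both panels.

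Single spike-ins varied around this shift. Of the 30 spike-in sequences, 27 had a higher mean count per miRNA count in A5 than in WT, and 18 had both A5 libraries above both WT libraries, while 0 had both below. Their median log2 ratio was 0.36, with a range from -0.493 to 0.869. Counts of single spike-ins in these libraries ran from 2 to 848. The amount of spike-in and the step at which it was added were not given in any source used here. Fewer miRNA molecules per amount of total RNA and more spike-in per sample therefore cannot be told apart.

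Relative to the other miRNAs, 1 entry differed between A5 and WT. On this scale, set by TMM factors, miR-221-3p fell and 0 entries rose (edgeR's quasi-likelihood test with Benjamini-Hochberg adjustment, threshold 0.05). The entry called was 0.267% of the 374 tested. DESeq2 called 2 entries, both lower. At an unadjusted p under 0.05 edgeR gave 52 entries, 23 higher and 29 lower in A5, which is 6.15% and 7.75% of those tested. The fold changes were centred on 0, with quartiles of -0.29 and 0.27 on the log2 scale, and the median standard error was 0.326. Both A5 libraries lay above both WT libraries for 70 entries (18.7%) and below both for 73 (19.5%).

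On the spike-in scale, where each miRNA is counted per spike-in count, 55 entries fell and 0 rose (edgeR, adjusted p under 0.05), 14.7% of the 374. At an unadjusted p under 0.05 there were 117 entries, all lower. The median log2 fold change was -0.46, so the median entry was at 72.6% of its WT level. Of the 374 entries 318 had a negative fold change (85%). Both A5 libraries lay below both WT libraries for 212 entries (56.7%) and above both for 19 (5.08%). Values on this scale hold the shift shared by most entries, and the distance from -0.46 is what sets an entry apart from the rest. Of the 55 entries that fell, 28 were 3p strands (18.9% of those tested), 24 were 5p strands (13.8%) and 3 had no arm in the name (5.77%). The number of falls depended on both A5 libraries: it was 1 without A5 replicate 1 (miR-221-3p) and 7 without A5 replicate 2 (miR-221-3p, miR-222-3p, let-7i-5p, miR-98-5p, miR-101-3p, miR-185-5p and miR-1307-5p). It was 17 with only the 4 libraries fitted.

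**Figure D2:**
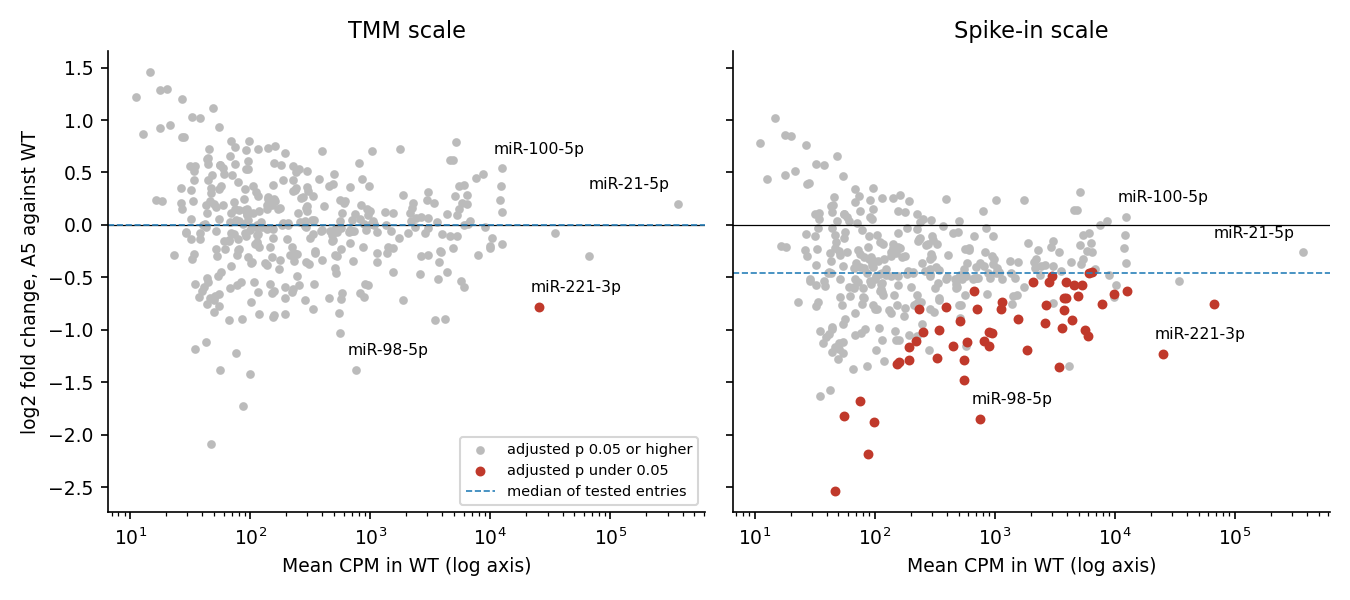
log2 fold change of A5 against WT for each of the 374 tested entries on the TMM and spike-in scales (vertical axes), against mean CPM in WT on a log axis. Points past the adjusted p of 0.05 are marked: 1 on the TMM scale and 55, all lower in A5, on the spike-in scale, where the bulk of entries was centred on -0.46.

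miR-221-3p, which is known to target the cell-cycle inhibitor p27, was the entry that fell on both scales. It had 26888 and 23671 CPM in the WT libraries and 13750 and 15792 CPM in the A5 libraries. The groups did not overlap, and the means were 25279 ± 2275 and 14771 ± 1444 CPM (SD, n = 2). The log2 fold change was -0.78 ± 0.141 (SE, edgeR, adjusted p = 0.0334). Per 1000 spike-in counts it was at 693 and 651 in WT and at 261 and 312 in A5, 42.6% of the WT level (log2 fold change -1.23 ± 0.148, edgeR, adjusted p = 0.000472). On the TMM scale the call was lost without A5 replicate 1 (-0.68, edgeR adjusted p = 0.578), without A5 replicate 2 (-0.88, 0.209), with only the 4 libraries fitted (-0.80, 0.498), with the robust step off (0.0719) and when entries averaging under 100 CPM were dropped (0.054). It held in 6 of the 12 alternatives tried, some of which scaled between miRNAs without TMM factors. On the spike-in scale it held in all 9 alternatives tried, at adjusted p = 0.000417 to 0.0414.

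The other strands of the pair did not pass on the TMM scale. miR-222-3p, with the same seed, was the second most abundant entry in WT. It had 71495 and 62191 CPM in WT and 52720 and 56100 CPM in A5, with no overlap (log2 fold change -0.30 ± 0.135, edgeR, adjusted p = 0.352). Per 1000 spike-in counts it fell from 1844 and 1711 to 999 and 1110, 59.3% of WT (edgeR, adjusted p = 0.00394), a call lost without A5 replicate 1 (0.0978). miR-222-5p fell on that scale too, from 103 and 99 to 58.7 and 65 per 1000 spike-in counts (log2 fold change -0.70, edgeR, adjusted p = 0.00915). miR-221-5p, the partner strand of miR-221-3p, had 2601 and 7757 CPM in WT and 10124 and 7807 CPM in A5. Both A5 libraries were above both WT libraries, one by little, and the strand did not pass (log2 fold change 0.79 ± 0.624, edgeR, adjusted p = 0.641).

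Of the 9 tested 5p strands of the let-7 family, which restrain growth genes such as HMGA2 and RAS genes, 6 fell on the spike-in scale and 0 on the TMM scale, where 5 were lower at an unadjusted p under 0.05. Over all tested entries 14.7% fell per spike-in count and 7.75% were lower at that p on the TMM scale. Their median log2 fold change was -0.98 on the spike-in scale and -0.52 on the TMM scale, against -0.46 and 0 for all tested entries. The members are near-identical copies, and values of single members are uncertain because the counting of shared reads was not given in any source used here. let-7i-5p, the member with the most base differences from let-7a-5p, had 5344 and 6719 CPM in WT and 3845 and 4156 CPM in A5. The groups did not overlap (log2 fold change -0.59 ± 0.140, edgeR, adjusted p = 0.0865). Counted per 1000 spike-ins it fell from 138 and 185 to 72.9 and 82.2, 48.1% of WT (edgeR, adjusted p = 0.0034).

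miR-98-5p, the least abundant of the 5p strands of the family that fell, had the lowest fold change among the 9. It had 579 and 939 CPM in WT and 259 and 320 CPM in A5 (log2 fold change -1.38 ± 0.294, edgeR, adjusted p = 0.0681). Relative to the other miRNAs it passed with DESeq2 and its own scaling (adjusted p = 0.015) and with edgeR on total counts (0.0453). With TMM factors it passed with no filter (edgeR, adjusted p = 0.000228), and its log2 fold change was -1.71 without WT replicate 1. It passed in only 4 of the 12 alternatives tried relative to the other miRNAs. It did not pass with only the 4 libraries fitted (-1.4, edgeR, adjusted p = 0.498) or with the robust step off (0.102). Its level per 1000 spike-in counts fell from 14.9 and 25.8 to 4.92 and 6.32, 27.8% of WT (edgeR, adjusted p = 0.0034, 0.0783 without A5 replicate 1). let-7f-5p fell from 80 and 115 to 45.2 and 53.4 per 1000 spike-in counts (log2 fold change -0.98, edgeR, adjusted p = 0.00946). let-7e-5p, let-7d-5p and let-7a-5p also fell, by 1.03, 1.19 and 0.75 on the log2 scale. The calls of let-7e-5p, let-7d-5p and let-7a-5p were lost with only the 4 libraries fitted, and also without WT replicate 2, where the fall of let-7d-5p was 0.60.

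Other let-7 strands with the same seed stood at the level of most miRNAs. let-7g-5p had 2382 and 2369 CPM in WT and 2454 and 2241 CPM in A5, overlapping (log2 fold change -0.02). let-7b-5p had 2736 and 3377 CPM in WT and 3396 and 3043 CPM in A5, overlapping as well (0.07). Per spike-in count all 9 strands were lower in both A5 libraries than in either WT library. The 10 tested 3p strands of the family had median log2 fold changes of 0.17 (TMM scale) and -0.28 (spike-in scale), and 1 fell per spike-in count. This was let-7i-3p, from 11.9 and 12.2 to 5.77 and 5.06 per 1000 spike-in counts (edgeR, adjusted p = 0.00638). Both strands of let-7i were thus lower in A5.

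**Figure D3:**
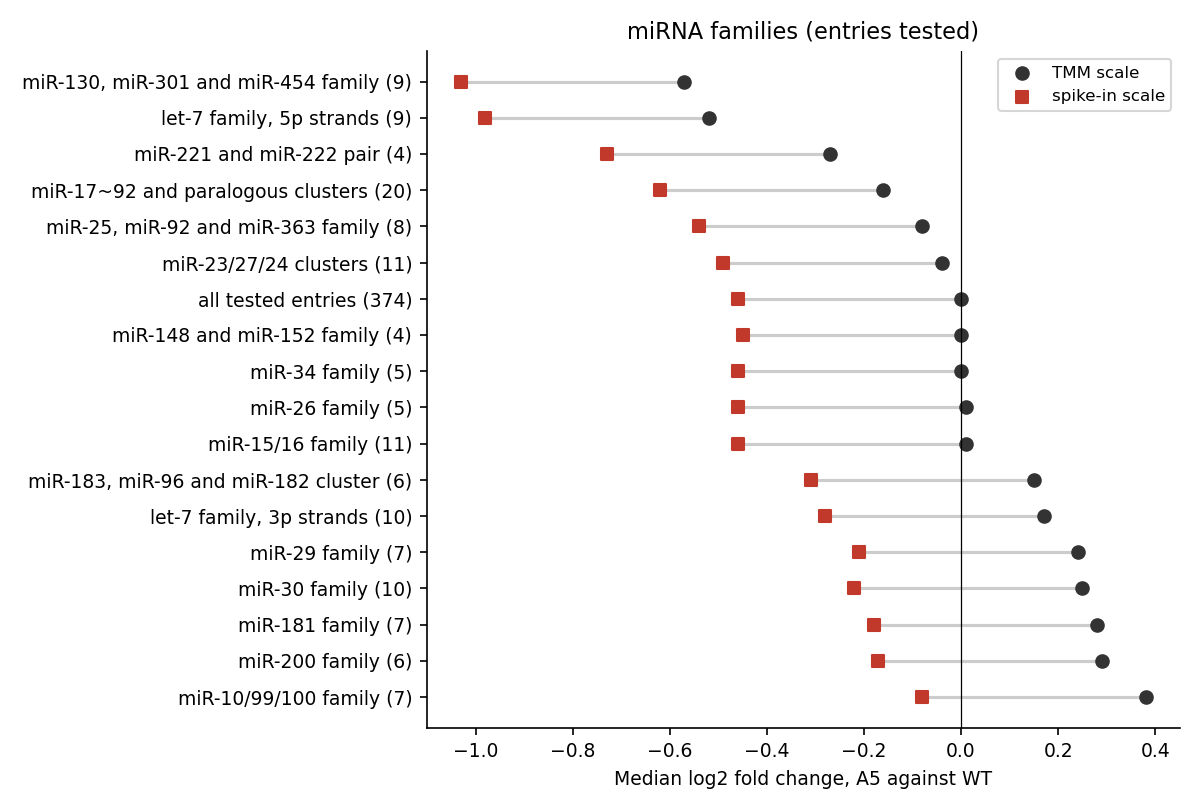
Median log2 fold change of A5 against WT for each miRNA family or cluster on the TMM and spike-in scales, with the number of tested members. The 5p strands of let-7 were at -0.52 and -0.98 and the miR-10/99/100 family at 0.38 and -0.08, beside 0 and -0.46 for all tested entries.

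Among the entries with at least 100 CPM that fell on the spike-in scale, those with the largest falls after miR-98-5p were miR-185-5p, miR-103a-3p, miR-320b, miR-361-3p, miR-324-5p, miR-106a-5p, miR-301a-3p, miR-221-3p and let-7d-5p. miR-185-5p had 655 and 465 CPM in WT and 234 and 312 CPM in A5, with no overlap (TMM log2 fold change -1.03 ± 0.244, edgeR, adjusted p = 0.0865). It fell per 1000 spike-in counts from 16.9 and 12.8 to 4.44 and 6.18 (log2 fold change -1.48, edgeR, adjusted p = 0.0034). miR-103a-3p, which is known to repress DICER1 mRNA, fell from 115 and 66 to 35.2 and 35.8 per 1000 spike-in counts (-1.35, edgeR, adjusted p = 0.00946). Both A5 libraries were lower than either WT library, although the WT libraries were far apart. Its sequence is nearly that of miR-107, which did not pass (-1.15, edgeR, adjusted p = 0.0608), and the counting of reads common to both was not given in any source used here.

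miR-320b and miR-361-3p were low in both A5 libraries, at 1.51 and 1.71 and at 1.51 and 1.86 per 1000 spike-in counts, against 4.2 and 3.99 and 4.56 and 3.88 in WT (log2 fold changes -1.33 and -1.31, edgeR, adjusted p = 0.0148 and 0.0235). Without WT replicate 1 miR-361-3p missed the threshold (edgeR, adjusted p = 0.0745). For miR-361 the 5p strand, at -0.36, did not pass (edgeR, adjusted p = 0.257). miR-324-5p fell from 18.3 and 10.9 to 5.67 and 6.32 per 1000 spike-in counts (-1.29, edgeR, adjusted p = 0.0214), and its call was lost without WT replicate 1 (-0.86, 0.108). miR-106a-5p rested on few counts and on WT replicate 1: 7.06 and 3.15 in WT, 1.8 and 2.38 in A5 (-1.29, edgeR, adjusted p = 0.0497), and -0.58 (0.378) without that library. miR-301a-3p fell from 6.44 and 11.4 to 4.54 and 2.9 per 1000 spike-in counts (-1.27, edgeR, adjusted p = 0.0353) and was at -0.81 (0.188) without WT replicate 2.

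Smaller falls came with close agreement between the libraries of a group in miR-101-3p and miR-128-3p. miR-101-3p, which targets the methyltransferase EZH2, was at 22.6 and 25.1 per 1000 spike-in counts in WT and at 10.7 and 10.9 in A5 (log2 fold change -1.15 ± 0.183, edgeR, adjusted p = 0.0034). miR-128-3p was at 22.4 and 21.3 in WT and at 10.6 and 9.75 in A5 (-1.11, edgeR, adjusted p = 0.00481). Below 100 CPM 5 further entries fell on this scale, all on few counts. miR-421 had 15 and 11 counts in the WT libraries and 1 and 4 in the A5 libraries, miR-3200-3p 24 and 24 against 7 and 5, and miR-340-3p 24 and 18 against 7 and 8. The mirtron strand miR-877-3p, whose hairpin is released by splicing, had 24 and 30 counts against 8 and 9, and miR-186-3p 19 and 12 against 3 and 7.

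**Figure D4:**
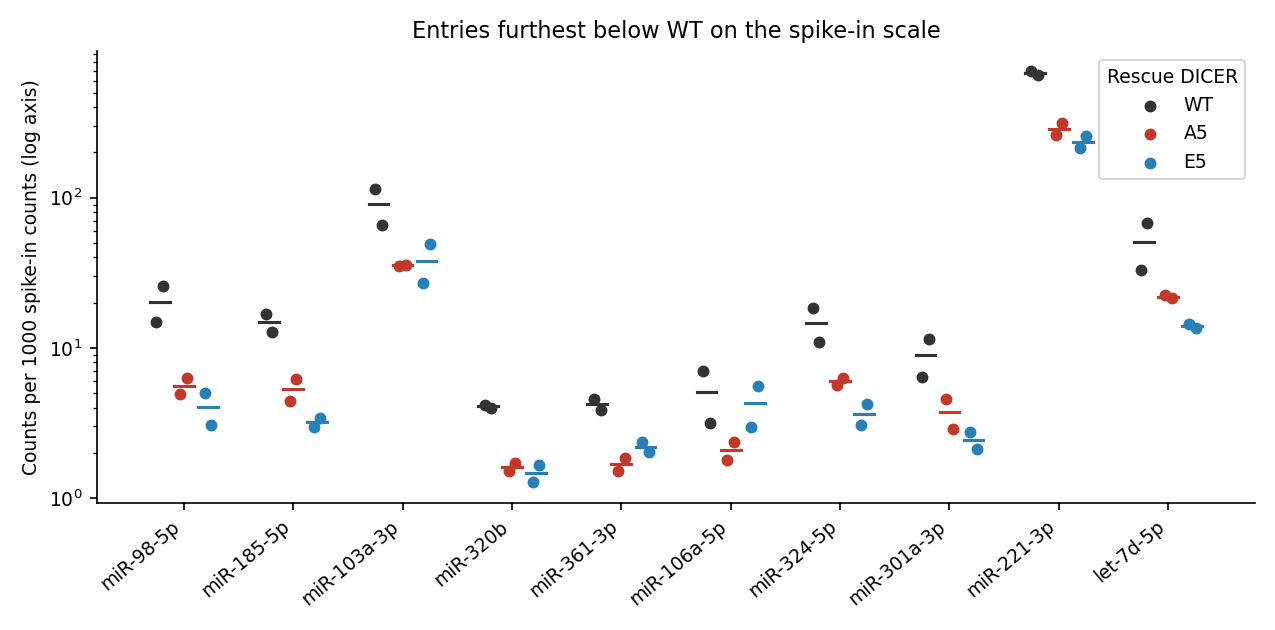
Counts per 1000 spike-in counts on a log axis for the 10 entries with at least 100 CPM and the largest falls on the spike-in scale, with a point for each WT, A5 and E5 library. For each of the 10 entries both A5 points lay below both WT points.

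The entries highest in WT behaved differently from each other. miR-21-5p had 327769 and 407509 CPM in WT and 436070 and 410686 CPM in A5, narrowly above both, and did not pass on the TMM scale (log2 fold change 0.20 ± 0.158, edgeR, adjusted p = 0.627) or on the spike-in scale (-0.26 ± 0.197, 0.367). miR-31-5p overlapped between the groups, at 43210 and 26051 CPM in WT and 31145 and 34284 CPM in A5. miR-27a-3p fell on the spike-in scale (-0.63, edgeR, adjusted p = 0.0497), a call lost without WT replicate 1 (-0.38, 0.251) or either A5 library, and miR-24-3p, from the same cluster, was at -0.57 (0.0608). miR-16-5p, of the miR-15/16 family that restrains the cell cycle, had 319 and 320 per 1000 spike-in counts in WT and 256 and 293 in A5 (-0.22, edgeR, adjusted p = 0.281). miR-21-3p had 7192 and 17688 CPM in the WT libraries, on both sides of the A5 values of 14298 and 12693 CPM. miR-4521 overlapped between the groups as well, at -0.10 on the spike-in scale.

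miR-100-5p was the entry with the lowest p-value among those higher in A5. It had 13191 and 11698 CPM in WT and 18657 and 17446 CPM in A5, with no overlap (log2 fold change 0.54 ± 0.133, edgeR, adjusted p = 0.0994). Per 1000 spike-in counts it was at 340 and 322 in WT and 354 and 345 in A5 (0.08 ± 0.145, edgeR, adjusted p = 0.734), so its share of the pool was higher while its level per spike-in count was nearly the same in the 4 libraries. miR-99b-5p, with the same seed, went the other way, from 47.1 and 35.2 to 20.7 and 23.3 per 1000 spike-in counts (-0.90, edgeR, adjusted p = 0.00956). miR-10a-5p, encoded beside HOXB genes, had 10007 and 7326 CPM in WT and 12049 and 12320 CPM in A5 (TMM log2 fold change 0.49 ± 0.147, edgeR, adjusted p = 0.203; spike-in scale 0.04). Of 7 tested members of the miR-10/99/100 family 0 rose and 0 fell on the TMM scale, 3 were higher and 1 lower at an unadjusted p under 0.05, and 1 fell on the spike-in scale. Over all tested entries 6.15% were higher and 7.75% lower at that p, and 14.7% fell per spike-in count, so 1 fall among 7 was near the background.

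Other families are given by their counts on the spike-in scale, read against the 14.7% of all tested entries that fell. In the miR-17~92 and paralogous clusters, which drive proliferation, 6 of 20 tested members fell, with a median log2 fold change of -0.62. They included miR-17-5p (-0.70) and miR-93-5p (-0.76), while miR-20a-5p and miR-106b-5p, with the same seed, did not pass at -0.44 and -0.35. In the miR-130, miR-301 and miR-454 family 2 of 9 fell (median -1.03), and in the miR-23/27/24 clusters 3 of 11 (median -0.49). In the miR-200 family, which maintains the epithelial state, 1 of 6 fell (median -0.17): miR-200a-3p, from 22.5 and 25.5 to 11.7 and 12 per 1000 spike-in counts (edgeR, adjusted p = 0.00923), whereas miR-200b-3p from the same cluster was at -0.45 (0.101). In the miR-30 family 1 of 10 fell (median -0.22), in the miR-29 family 1 of 7 (median -0.21), in the miR-15/16 family 0 of 11 (median -0.46) and in the miR-181 family 0 of 7 (median -0.18). On the TMM scale, where the median of all entries was 0, the medians were 0.29 for miR-200, 0.25 for miR-30, 0.24 for miR-29 and 0.28 for miR-181, and the lower values per spike-in count hold the shift of -0.46 shared by most entries.

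Entries with other routes of maturation were few. miR-451a, cut by Argonaute 2 rather than DICER, had 44 and 32 counts in WT and 33 and 38 in A5, and was at 81.2% of WT per spike-in count (log2 fold change -0.30, edgeR, adjusted p = 0.46), beside 72.6% for the median entry. Its difference from other entries was not tested. Of the 2 tested entries whose hairpin begins at a transcription start, miR-320a fell from 108 and 199 to 80.7 and 72.1 per 1000 spike-in counts, 49.8% of WT (edgeR, adjusted p = 0.0279), and miR-484 did not pass. miR-484 was at 19.9 and 19 per 1000 spike-in counts in WT and 11.4 and 15.8 in A5 (-0.51, edgeR, adjusted p = 0.101).

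Sequences were compared between the entries that fell on the spike-in scale and the rest. A RefSeq mature sequence was matched for 331 of the 374 tested entries and 49 of the 55 that fell. These 49 carried 38 seeds, and 6 seeds were carried by more than 1 of them, 17 entries in all. Of the tested entries with the seed GAGGUAG (let-7) 6 of 9 fell, and with AAAGUGC (miR-17) 3 of 5. For AGUGCAA (miR-130, miR-301 and miR-454) and AUUGCAC (miR-25/92) it was 2 of 4 each. For GCUACAU (miR-221 and miR-222) and UCACAGU (miR-27) it was 2 of 2 each. These 6 seeds are listed because more than 1 carrier fell, and 14.8% of all 331 matched entries fell. The first base was U in 57.1% of the 49 and in 36.2% of the other 282. The entries that fell were also the more abundant, with a median of 957 CPM in WT against 149. Among entries with at least 100 CPM the shares were 59.1% of 44 and 41.3% of 189. Both sets had a median length of 22 bases, and their median GC content was 47.8% and 47.7%. Median fold changes by first base lay close together on the TMM scale, at -0.05 for U, 0.03 for A, 0.04 for C and 0.02 for G.

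The ratio of the 5p to the 3p strand of a hairpin does not depend on scaling. It was tested for 69 hairpins with limma, and 0 passed an adjusted p of 0.05 (lowest 0.365), while 7 had an unadjusted p under 0.05 (10.1%), 6 toward 5p and 1 toward 3p. The median log2 shift was 0.02, with 37 hairpins toward 5p and 32 toward 3p. Both A5 libraries lay toward 5p of both WT libraries in 16 hairpins (23.2%) and toward 3p in 8 (11.6%). Of the 23 hairpins led by the 3p strand in WT, 19 had a shift toward 5p, with a median of 0.38, and of the 46 led by the 5p strand 18 did, with a median of -0.09. Because the WT libraries both sort these hairpins and set their shift, some of this contrast arises by construction.

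The 5 hairpins with the lowest p-values, none of which passed, were miR-29c, miR-29a, miR-454, miR-200a and miR-221, all toward 5p. The precursors of miR-29c and miR-221 are shown as RefSeq hairpins (GRCh38.p14, both minus strand), with the mature strands that RefSeq lists in capitals: both strands for miR-29c at chr1:207801852-207801939, in an exon of MIR29B2CHG, and the 3p strand for miR-221 at chrX:45746157-45746266.
MIR29C: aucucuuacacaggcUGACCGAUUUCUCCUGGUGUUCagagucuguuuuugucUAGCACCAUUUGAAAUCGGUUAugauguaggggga
MIR221: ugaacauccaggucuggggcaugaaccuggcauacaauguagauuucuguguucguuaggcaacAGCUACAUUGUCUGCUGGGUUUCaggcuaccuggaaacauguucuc

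For miR-29c the log2 5p/3p ratio was -0.78 and -0.54 in WT and 0.39 and 0.38 in A5, so the leading strand differed between the groups (shift 1.04 ± 0.310, SE, limma, unadjusted p = 0.00575, adjusted p = 0.365). Its 5p strand had 61 and 46 counts in WT and 67 and 78 in A5, and its 3p strand 105 and 67 against 51 and 60. miR-29a, from another locus, was at -0.97 and -0.94 in WT and -0.36 and -0.61 in A5 (0.47 ± 0.157, limma, adjusted p = 0.365). It rested on more than 1000 counts for each strand and kept 3p as its leading strand. For miR-221 the ratio was -3.37 and -1.61 in WT and -0.44 and -1.02 in A5 (1.76 ± 0.680, limma, adjusted p = 0.400). The A5 libraries did not overlap WT, but the WT libraries lay far from each other. miR-454 was at 1.12 and -0.11 in WT and 1.73 and 1.40 in A5, and miR-200a at -3.20 and -3.97 in WT and -2.92 and -2.07 in A5. The leading strand by group mean also differed in miR-130b, toward 5p (-0.12 to 0.62), and in miR-324, toward 3p (0.16 to -0.47). In both hairpins the WT libraries disagreed on the leading strand, at -0.29 and 0.06 for miR-130b and at 0.43 and -0.12 for miR-324. In miR-629 the 5p strand led in WT (0.56) and neither did in A5 (0.00). The calls depended on the setting: miR-29a passed when the 15 hairpins with a mean of 100 counts or more per strand were tested alone (limma, adjusted p = 0.0353), and miR-454 without WT replicate 1 (0.0402). With only the 4 libraries fitted miR-221 and miR-629 passed. The number of bases between the mature strands, known for 52 hairpins, had a median of 17 (12 to 35). The median shift was 0.08 in the 31 hairpins at or under it and 0.02 in the other 21.

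**Figure D5:**
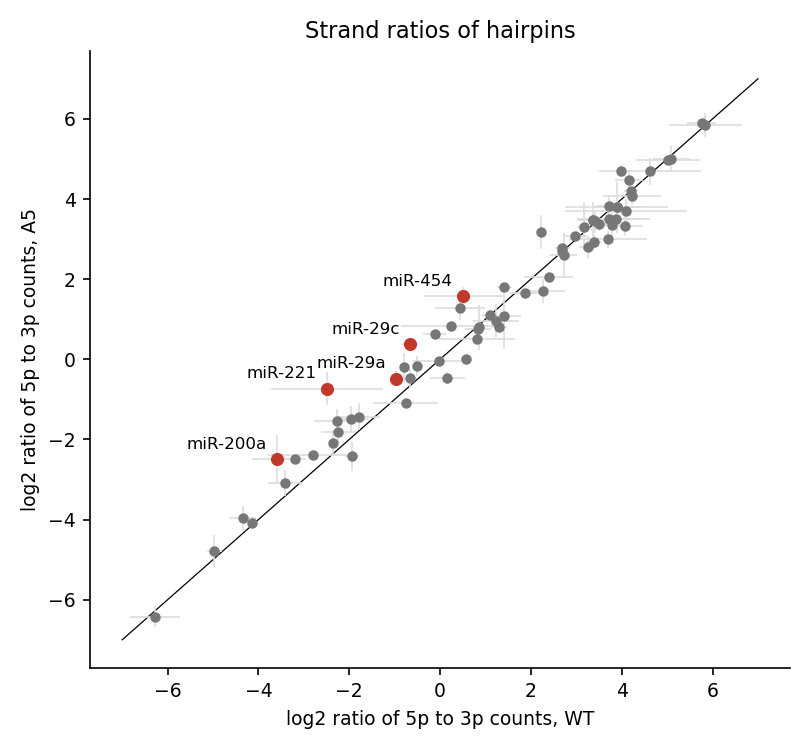
Mean log2 ratio of 5p to 3p counts in WT (horizontal axis) and in A5 (vertical axis) for the 69 hairpins, with bars of 1 SD over 2 libraries and the line of equal ratio. The 5 hairpins with the lowest p-values (miR-29c, miR-29a, miR-454, miR-200a and miR-221) are in red and lie above the line, toward 5p.

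A5 was set directly against E5, since the names differ by 1 letter, and 0 of 374 entries passed on either scale (edgeR, adjusted p under 0.05, 0% called; lowest adjusted p 0.192 with TMM factors and 0.0523 per spike-in count). At an unadjusted p under 0.05 there were 36 entries with TMM factors and 37 per spike-in count, and DESeq2, with its own scaling between miRNAs, called 0. Missing the threshold does not show that the groups were alike: the 95% interval of the A5 to E5 difference lay within 1 log2 unit either way for 175 of the 374 entries, and for 171 of the 264 with at least 100 CPM in a group. For miR-221-3p the difference was 0.14 (95% interval -0.16 to 0.44), for miR-222-3p 0.20 (-0.09 to 0.49) and for miR-98-5p 0.37 (-0.32 to 1.05). A5 and E5 were each compared with the same WT libraries, so their fold changes are not independent. Against WT on the TMM scale miR-221-3p was at -0.78 in A5 and -0.92 in E5, miR-222-3p at -0.30 and -0.50, and miR-98-5p at -1.38 and -1.75. With the same test E5 differed from WT in 34 entries with TMM factors and 102 per spike-in count. These counts do not show that A5 differed from E5, and the direct test above bears on that.

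The lowest p-values between A5 and E5 belonged to miR-25-3p and miR-92a-3p, whose seed is AUUGCAC. miR-25-3p had 4071 and 3457 CPM in WT, 3022 and 2877 in A5 and 1689 and 2032 in E5. The A5 libraries lay between the other groups without overlap, 0.66 log2 units above E5 (95% interval 0.35 to 0.98, edgeR, adjusted p = 0.192). miR-92a-3p had 6571 and 6429 CPM in WT, 6468 and 6649 in A5 and 4657 and 4624 in E5. Here A5 overlapped WT, and stood 0.50 above E5 (0.24 to 0.76, edgeR, adjusted p = 0.219). miR-92b-3p, less abundant and with the same seed, had 531 and 828 CPM in WT, 663 and 651 in A5 and 447 and 288 in E5 (0.85, 0.30 to 1.40, edgeR, adjusted p = 0.445). On the spike-in scale miR-25-3p and miR-92a-3p missed the threshold by little (adjusted p = 0.0523 and 0.0639), and both passed when spike-ins were scaled by TMM or by the median of ratios, or when only entries with at least 100 CPM were tested. The opposite direction was seen for miR-101-3p, at 877 and 912 CPM in WT, 564 and 549 in A5 and 750 and 876 in E5 (-0.55, -0.95 to -0.16, edgeR, adjusted p = 0.445). The arm ratio gave 0 hairpins between A5 and E5 at an adjusted p under 0.05 and 0 at an unadjusted p under 0.05 (limma).

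Against ΔPAZ helix, 0 of 374 entries passed on either scale (edgeR, 0% called; lowest adjusted p 0.653 and 0.651), and 8 and 6 had an unadjusted p under 0.05. DESeq2 called 0 as well. With only the 4 libraries fitted, 0 passed on the TMM scale too. In that fit 31 entries had an unadjusted p under 0.05, and the lowest adjusted p was 0.0542 (edgeR). The 95% interval lay within 1 log2 unit either way for 201 of the 374 entries. With the same test ΔPAZ helix differed from WT in 1 entry with TMM factors and 49 per spike-in count, all lower, beside 1 and 55 for A5. The median log2 fold changes per spike-in count were -0.45 and -0.46. Both groups were set against the same WT libraries, so these counts are not independent. On the TMM scale miR-221-3p was 0.27 lower in A5 than in ΔPAZ helix (log2 difference -0.27, 95% interval -0.57 to 0.03). miR-25-3p was higher in A5 by 0.57 (0.25 to 0.88) and miR-185-5p by 0.18 (-0.38 to 0.74). The 95% intervals of single entries are not adjusted for the 374 entries tested, and miR-25-3p did not pass. let-7i-5p differed by -0.28 (-0.58 to 0.02) and miR-98-5p by -0.07 (-0.74 to 0.59).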

How the data were processed

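Small RNA of 12 HCT116 libraries was sequenced on a NovaSeq instrument, per the labels' protocols. The authors deposited whole-number counts for each entry, which were assumed to be without normalization. Tools named in the submitters' processing notes are bedtools, BWA and cutadapt, and the builds are mm10 and hg38. Versions, the role of each build and the counting of reads that match several miRNAs were not given in any of the sources used here. miR-500a-5p and miR-500b-5p held identical counts.

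Groups came from the sample titles. The test used edgeR 4.0.16 in R 4.3.3 (robust quasi-likelihood test, filterByExpr by group) in 1 fit over all 12 libraries with 6 residual degrees of freedom. The threshold was 0.05 after Benjamini-Hochberg adjustment. TMM factors over miRNA entries gave the first scale, and summed spike-in counts, kept out of the tested rows, gave the second. Standard errors were derived from the fold change and its F statistic. The log2 ratio of (5p + 0.5) to (3p + 0.5) counts was tested with limma 3.58.1 where both strands averaged at least 20 counts. Single library quantities were compared by exact permutation. The code was tested on simulated counts. DESeq2 1.42.0, other scalings and filters, the replicate block and leaving out each library were alternatives.

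The rule for naming took called entries with at least 100 CPM by size, the 5 low-count calls, the 10 entries highest in WT, the 5 hairpins with the lowest p and examples from each list. The other let-7 members, miR-101-3p, miR-128-3p and the entries named between A5 and E5 were chosen after their values were seen. The comparison, lists and rules were chosen with earlier results of these data known. Sequences came from RefSeq (GRCh38.p14), and those of some named entries are not shown.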

Additional observations from a re-analysis of the deposited data

How the results depend on the processing

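On the TMM scale the 1 entry that differed between A5 and WT became 2 with DESeq2 or total counts, 3 with no filter on low counts, and 0 with the robust step off, with a mean of at least 100 CPM or with only the 4 libraries. Leaving out each library in turn gave 0 to 8, with 8 without WT replicate 1 and 4 without WT replicate 2. Those 8 were 2 higher (miR-10a-5p and miR-1260b) and 6 lower (miR-221-3p, miR-98-5p, miR-320a and let-7d-5p, let-7f-5p and let-7i-5p). On the spike-in scale the 55 falls became 17 with only the 4 libraries, and 1 to 49 when each library was left out. With TMM or median-of-ratios factors over spike-ins there were 52, and 54 with a mean of at least 100 CPM. Replicate numbers gave little sign of pairing where A5 was compared: deviations of libraries with the same number correlated at -0.09 between WT and A5, 0.05 between A5 and E5 and -0.11 between A5 and ΔPAZ helix. Over all pairs of groups in the fit they ran from -0.46 between WT and E5 to 0.32 between WT and R821A. With the replicate number as a block the counts were 0 on the TMM scale (miR-221-3p at adjusted p = 0.0821, edgeR) and 36 on the spike-in scale, 35 of them among the 55. For A5 against ΔPAZ helix the block over all 12 libraries gave 0 (edgeR, lowest adjusted p = 0.95). A crossed pairing, added after seeing the data and fitted on only the 4 libraries, also gave 0 (edgeR, lowest adjusted p = 0.062). A5 against E5 stayed at 0 to 1 when each library was left out on both scales, and was 2 (miR-25-3p and miR-92a-3p) with either other spike-in scaling or a mean of at least 100 CPM. Hairpins with a changed arm ratio were 1 with at least 100 counts in both arms, 2 with only the 4 libraries (miR-221 and miR-629) and 0 to 1 when each library was left out. The log2 ratio of miRNA counts per spike-in count, -0.39, ranged from -0.49 to -0.28, and that of the 3p share, -0.30, from -0.37 to -0.20.

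Directions of overlapping entries turned with single libraries. On the TMM scale, when each library was left out, miR-31-5p ranged from -0.49 to 0.30, miR-27a-3p from -0.52 to 0.10, miR-21-3p from -0.42 to 0.82 and miR-24-3p from -0.46 to 0.16, each turning without WT replicate 1. On the spike-in scale miR-21-3p ranged from -0.90 to 0.49, turning without WT replicate 2, and miR-4521 was at 0.07 without that library and 0.15 without A5 replicate 2. The cause was not tested. Depth limited entries near 3 counts per library.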

Other observations

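Some abundant strands outside the families described above also fell on the spike-in scale, and were chosen here after their values were seen. miR-7-5p, which is known to target EGFR, was at 106 and 128 per 1000 spike-in counts in WT and 59.4 and 65.3 in A5 (log2 fold change -0.91, edgeR, adjusted p = 0.00638), and miR-1307-5p fell from 65.5 and 74.3 to 33.6 and 39.7 (-0.93, adjusted p = 0.0034). Neither passed on the TMM scale (adjusted p = 0.203 for both), although the groups did not overlap. Without A5 replicate 1 both calls were lost, and without A5 replicate 2 miR-1307-5p passed at -1.06 (adjusted p = 0.033) and miR-7-5p did not.

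Other strands were higher in A5 relative to the rest of the pool without passing the test. miR-532-5p had 1030 and 1023 CPM in WT and 1810 and 1534 CPM in A5, with no overlap (TMM log2 fold change 0.70 ± 0.183, edgeR, adjusted p = 0.117). Per 1000 spike-in counts it was at 26.6 and 28.1 in WT and 34.3 and 30.4 in A5 (0.24, adjusted p = 0.405), one of 19 entries with both A5 libraries above both WT libraries on that scale. miR-183-5p, a miRNA of sensory and epithelial cells, had 6332 and 5826 CPM in WT and 8438 and 7337 CPM in A5 (0.38 ± 0.126, edgeR, adjusted p = 0.203), and per 1000 spike-in counts it was at 163 and 160 in WT and 160 and 145 in A5 (-0.08, adjusted p = 0.713).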
